A study of Homo sapiens with 6 samples.

Results

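The autophagy and mitophagy genes described here are 43 genes of a total of 60611 in a count table of the human beta-cell line EndoC-BH5, which was derived from pancreas. They were taken by gene name, and all 43 were found once each. They comprise 33 genes of the core machinery that builds the autophagosome, 5 cargo receptors, 4 mitophagy genes and IRGM, an immunity-related GTPase. RNA was sequenced in 6 libraries. The cytokine group, 3 libraries, had received interferon gamma together with interleukin 1 beta, and the vehicle group, 3 libraries, had received vehicle alone. All 6 libraries came from the same line with the genotype given as WT, and the study design speaks of batches for the 3 samples of a group. The sources used here give neither the doses nor how long the cells were exposed. Nothing states that the batches were grown separately, so the p-values cover only the spread between these libraries, which may be technical. RNA came from whole cultures, so fewer cells of a type and less RNA per cell cannot be told apart.

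In macroautophagy a cell encloses part of its cytoplasm in a growing membrane, closes it into an autophagosome and delivers it to the lysosome. The ULK1 kinase complex and the class III PI3-kinase complex start the membrane, conjugation enzymes attach LC3 and GABARAP proteins to its lipid, and cargo receptors bind both the cargo and LC3. Mitophagy is the same route used for mitochondria, and in beta cells it is known for the turnover of damaged ones.

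Levels are counts per fixed library total (CPM) after correction for library size and composition with TMM. Changes are given on the log2 scale as cytokine over vehicle, each with a standard error (SE). A gene passed the test at an adjusted p under 0.05 by edgeR's quasi-likelihood test with Benjamini-Hochberg adjustment over all 17847 genes tested. The libraries held 13689972 to 16175364 counts in the cytokine group and 5871481 to 15894082 counts in the vehicle group, so 1 CPM stood for 6.29 counts in the shallowest library, vehicle replicate 1, and for 17.1 in the deepest on this scale, vehicle replicate 3. The 10 beta-cell markers were all detected, with INS at 3641 CPM in cytokine libraries and 4012 CPM in vehicle libraries. Genes that answer to the cytokines separated the groups as labelled: IRF1 averaged 1229 CPM against 20.1 CPM and SOD2 741 CPM against 138 CPM in cytokine and vehicle libraries. CXCL10 averaged 4442 CPM in cytokine libraries and was close to 0 in vehicle libraries.

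The 5 cargo receptors and the 4 mitophagy genes moved apart. Further lists of receptor and mitophagy genes, given below, each held as many higher as lower genes. OPTN rose 3.20-fold with cytokines, SQSTM1 rose 1.62-fold, CALCOCO2 and TAX1BP1 rose by less, and NBR1 did not pass the test. PINK1, FUNDC1 and BNIP3L fell, while BNIP3 did not pass. The core machinery was split, with ATG3 and MAP1LC3B the 2 genes of it that rose by at least 1.5-fold. Of the 43 genes, 42 passed the filter on low counts, 16 were higher with cytokines, 11 were lower, and 15 did not pass the test. That is 64.3% called, where 57.1% of all genes tested were called, 28.3% higher and 28.8% lower. Among genes of at least 10 CPM, a level that 40 of the 43 reached, 65.3% were called, 36.0% higher and 29.3% lower. Of the 42 genes, 38.1% were higher and 26.2% lower.

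Most of the changes were small. The median log2 fold change of the 42 genes was 0.05, and that of all genes tested was -0.02. Their median absolute change was 0.25, against 0.28 over all genes tested. At least 1.5-fold higher were 4 of 42 genes, OPTN, SQSTM1, MAP1LC3B and ATG3, where 11.2% of all genes were called and at least 1.5-fold higher. At least 1.5-fold lower were 0 of 42, against 11.3% of all genes. In glmTreat, an edgeR test against a fold of 1.5, OPTN and SQSTM1 were the 2 that passed, both higher. They are 4.76% of the 42 genes, where 7.82% of all genes tested were called higher and 5.32% lower in that test. The libraries of the 2 groups did not overlap in 28 of 42 genes, against 61.1% of all genes tested. The counts depended on scaling: with library size alone, which moved the median of all genes by -0.20, 9 of the 42 genes were higher (21.4%) and 21 lower (50%), beside 16.7% and 49.2% of all genes tested.

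**Figure D1:**
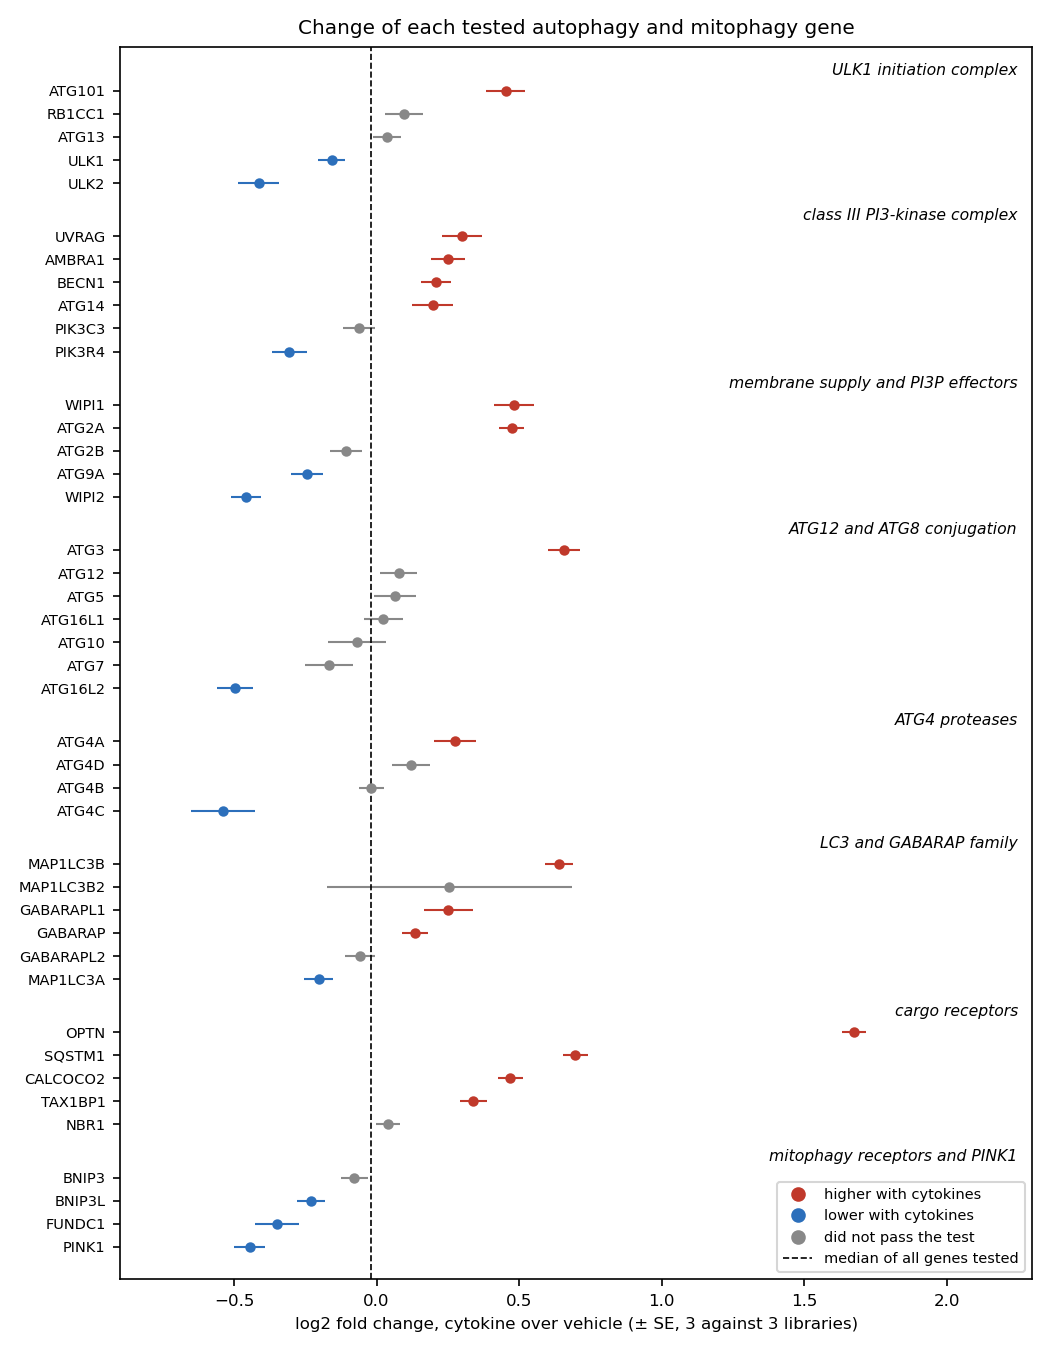
Log2 fold change of cytokine over vehicle for each of the 42 tested genes, grouped by role, from 3 cytokine and 3 vehicle libraries. Points are edgeR estimates with bars of 1 SE, colours give the call, and the dashed line is the median of all genes tested (-0.02). OPTN lies at 1.68, to the right of every other gene shown, and 3 of the 4 mitophagy genes are called lower. With scaling by library size alone the genes shift to the left by about 0.20, and 9 are called higher and 21 lower.

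Cargo receptors recognise what is to be degraded, often through ubiquitin, and hold it to LC3. OPTN, optineurin, acts in mitophagy and in the removal of bacteria and also binds regulators of NF-kappaB signalling. OPTN (ENSG00000123240) lies on the plus strand of chromosome 10 at 13099449 to 13138308 in GRCh38. Its level was 781, 744 and 744 CPM in cytokine replicates 1, 2 and 3, and 228, 242 and 238 CPM in vehicle replicates 1, 2 and 3. Every cytokine library lay above every vehicle library by a wide margin, and the spread within a group was small. The means were 756 ± 21.4 CPM with cytokines and 236 ± 7.21 CPM with vehicle (SD, n = 3 each). The log2 fold change was 1.68 (SE 0.04, edgeR adjusted p = 2.11e-24). Of all genes tested, 3.20% had a log2 fold change at least as high.

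SQSTM1, also called p62, binds ubiquitinated proteins and gathers them into bodies. It had 355, 350 and 359 CPM in the cytokine libraries, against 210, 231 and 215 CPM in the vehicle libraries. The groups did not overlap, with means of 355 ± 4.77 CPM and 218 ± 11.1 CPM in cytokine and vehicle libraries (SD, n = 3 each). The log2 fold change of SQSTM1 was 0.70 (SE 0.04, edgeR adjusted p = 1.71e-14), and 9.44% of all genes tested had one at least as high. SQSTM1 shares 1582 exon bases, 20.7% of its own, with MRNIP on the opposite strand. MRNIP was at 58.1 CPM with cytokines and 63.0 CPM with vehicle, lower by a log2 fold change of -0.13. No source used here gives the strand setting of the counting, so reads in such overlaps may be counted for either gene.

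CALCOCO2, known as NDP52, is a receptor for bacteria and for damaged mitochondria. It had 243, 244 and 235 CPM with cytokines and 170, 181 and 170 CPM with vehicle, a log2 fold change of 0.47 (SE 0.04, edgeR adjusted p = 1.49e-10). TAX1BP1 is a relative of CALCOCO2 that also takes part in ending inflammatory signalling. It had 193, 190 and 182 CPM with cytokines and 141, 156 and 148 CPM with vehicle, a log2 fold change of 0.34 (SE 0.05, edgeR adjusted p = 2.55e-07). In both genes all cytokine libraries were above all vehicle libraries.

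NBR1, which resembles SQSTM1 in its domains and works with it, was the receptor that did not pass the test. It had 170, 168 and 167 CPM with cytokines and 160, 167 and 163 CPM with vehicle. The highest vehicle library lay above the lowest cytokine library, so the groups overlapped. The log2 fold change of NBR1 was 0.04 (SE 0.04, edgeR adjusted p = 0.442). Under library size alone it was -0.16 and called lower. The other 4 receptors were called higher under both scalings. Summed over the 5 receptors the level was 1688 to 1742 CPM in cytokine libraries and 909 to 978 CPM in vehicle libraries.

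**Figure D2:**
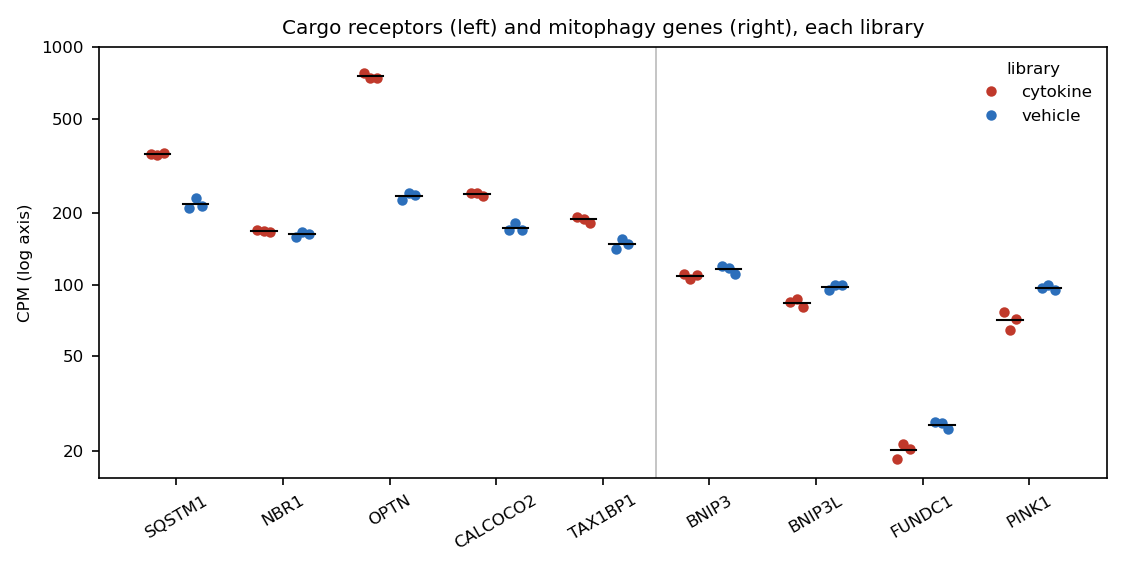
Level in CPM, on a log axis, of the 5 cargo receptors and the 4 mitophagy genes in each library, with cytokine libraries left of vehicle libraries and lines at the group means (n = 3 each). OPTN is at 744 to 781 CPM with cytokines and 228 to 242 CPM with vehicle, the libraries of NBR1 and BNIP3 overlap, and PINK1, FUNDC1 and BNIP3L lie lower with cytokines.

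The start regions of the receptor with the largest rise (OPTN), of one with a smaller rise (CALCOCO2) and of the one that did not pass (NBR1) are printed to let their letters be compared. They are RefSeq sequence on GRCh38.p14, plus strand, cut to the part of the 250 bases before a start that holds no GENCODE 29 exon. The OPTN stretch is chr10:13099959-13100158, which lies inside the annotated gene because OPTN has several starts. The CALCOCO2 stretch is chr17:48830785-48830987, just before the gene's first annotated base. The NBR1 stretch is chr17:43171038-43171201. Capitals mark 2 overlapping NF-kappaB matches in OPTN, which start 93 and 92 bases before the start used, and an antioxidant response core (TGACNNNGC) read on the minus strand in CALCOCO2. No searched motif was found in the NBR1 stretch, nor in those of SQSTM1 and TAX1BP1, which are not printed and were both called higher.
OPTN: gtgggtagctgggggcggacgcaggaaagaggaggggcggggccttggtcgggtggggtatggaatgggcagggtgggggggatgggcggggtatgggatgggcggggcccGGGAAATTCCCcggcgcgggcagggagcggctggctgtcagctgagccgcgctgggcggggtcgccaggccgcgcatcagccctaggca
CALCOCO2: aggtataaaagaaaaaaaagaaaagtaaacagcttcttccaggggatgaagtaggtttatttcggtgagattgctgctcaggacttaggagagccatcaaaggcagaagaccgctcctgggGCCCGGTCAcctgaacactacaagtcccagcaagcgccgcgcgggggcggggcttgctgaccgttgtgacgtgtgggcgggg
NBR1: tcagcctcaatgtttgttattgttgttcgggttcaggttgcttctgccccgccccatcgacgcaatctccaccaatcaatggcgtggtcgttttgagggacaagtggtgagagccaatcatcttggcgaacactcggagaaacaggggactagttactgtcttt

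RefSeq start windows were held for 36 of the 43 genes, 44 windows in all, and 5 motifs were searched on both strands in the 250 bases before each start. The NF-kappaB motif was found in 7 windows of 6 genes, 15.9% of the 44 windows, and in 9.96% of all 35116 windows. The 2 OPTN windows overlap and hold the same genomic site, so that site is counted in both. The 6 genes were OPTN, BECN1, ATG16L2, ATG2B, GABARAPL2 and PIK3C3, of which OPTN and BECN1 were called higher and ATG16L2 lower. The GAS motif (TTCNNNGAA), known from interferon gamma responses, was in 3 windows (6.82%, against 6.57% of all windows), those of AMBRA1, ATG5 and GABARAPL2. The interferon-stimulated response core (GAAA, any 2 bases, GAAA) was in 0 of the 44 windows and in 3.02% of all windows. The E-box CACGTG was in 3 windows (6.82%, against 6.34%), those of ATG14, ATG3 and BNIP3. The antioxidant response core was in 3 windows (6.82%, against 10.9%), those of ATG101, CALCOCO2 and MAP1LC3B. The start windows of SQSTM1 and TAX1BP1 held none of the 5 motifs. A match gives letters in a window and not a bound site.

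The mitophagy genes were lower or not past the test. PINK1 is the kinase that builds up on damaged mitochondria and marks them with phosphorylated ubiquitin, the signal that OPTN and CALCOCO2 read. PINK1 (ENSG00000158828), on the plus strand of chromosome 1 at 20633455 to 20651511, had 76.6, 64.8 and 71.8 CPM with cytokines and 97.2, 99.5 and 94.6 CPM with vehicle. All cytokine libraries lay below all vehicle libraries. The log2 fold change of PINK1 was -0.45 (SE 0.05, edgeR adjusted p = 5.18e-08). The antisense gene PINK1-AS shares 1907 exon bases with PINK1, 39.4% of its exon length, and was at 29.2 CPM with cytokines and 27.2 CPM with vehicle (log2 fold change 0.11, edgeR adjusted p = 0.168). How many of the reads in the shared stretch belong to PINK1 was not tested.

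BNIP3, BNIP3L and FUNDC1 are receptors in the outer mitochondrial membrane that bind LC3 themselves and are known from mitophagy under low oxygen. FUNDC1 had 18.5, 21.3 and 20.4 CPM with cytokines and 26.4, 26.1 and 24.7 CPM with vehicle (log2 fold change -0.35, SE 0.08, edgeR adjusted p = 0.000254). BNIP3L, also called NIX, had 84.8, 86.9 and 80.2 CPM with cytokines and 95.01, 99.8 and 99.4 CPM with vehicle (log2 fold change -0.23, SE 0.05, edgeR adjusted p = 0.000210). In both genes the groups did not overlap. BNIP3L shares 7.66% of its exon bases with PNMA2 on the opposite strand. PNMA2 was at 380 CPM with cytokines and 324 CPM with vehicle, higher by a log2 fold change of 0.23. BNIP3 had 111, 106 and 110 CPM with cytokines and 120, 117 and 111 CPM with vehicle (log2 fold change -0.08, SE 0.05, edgeR adjusted p = 0.161). Its groups overlapped, since the highest cytokine library was above the lowest vehicle library. With scaling by library size alone BNIP3 was also called lower, at -0.28, so that all 4 mitophagy genes were.

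Among the 5 genes of the ULK1 initiation complex, 1 was higher and 2 were lower with cytokines. Of all genes tested, 28.3% were higher and 28.8% lower with TMM scaling, and 16.7% and 49.2% with library size alone. These shares also stand beside the counts of each role group below. ATG101, which stabilises ATG13 in the complex, had 54.8, 50.4 and 60.0 CPM with cytokines and 43.1, 42.7 and 37.0 CPM with vehicle (log2 fold change 0.45, SE 0.07, edgeR adjusted p = 2.34e-06). ULK2 had 20.4, 21.1 and 21.7 CPM with cytokines and 25.6, 28.2 and 29.01 CPM with vehicle (log2 fold change -0.41, SE 0.07, edgeR adjusted p = 1.65e-05). ULK1, the kinase that mTORC1 and AMPK act on, had 102, 98.3 and 101 CPM with cytokines and 119, 108 and 111 CPM with vehicle (log2 fold change -0.16, SE 0.05, edgeR adjusted p = 0.00586). In these 3 genes the groups did not overlap. ATG13 and the scaffold RB1CC1, also called FIP200, did not pass, with log2 fold changes of 0.04 and 0.10. RB1CC1 was called higher without cytokine replicate 3, which made 2 higher genes in the complex.

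In the class III PI3-kinase complex, which makes the lipid PI3P, 4 of 6 genes were higher and 1 lower with TMM scaling. With library size alone 0 were higher and 2 lower, where 16.7% and 49.2% of all genes tested were. UVRAG, a subunit of the endosomal form, had 34.8, 34.2 and 37.2 CPM with cytokines and 24.9, 29.3 and 30.2 CPM with vehicle (log2 fold change 0.30, edgeR adjusted p = 0.000636). AMBRA1, a regulator that binds BECN1, had 53.4, 55.4 and 52.6 CPM with cytokines and 42.1, 48.8 and 44.0 CPM with vehicle (log2 fold change 0.25, edgeR adjusted p = 0.000736). BECN1, the central subunit, and ATG14, which brings the complex to the forming autophagosome, were higher by 0.21 and 0.20 on the log2 scale. The call of ATG14 was also lost in DESeq2 and without cytokine replicate 1, cytokine replicate 2 or vehicle replicate 3. PIK3R4, the pseudokinase subunit VPS15, had 41.6, 44.5 and 40.8 CPM with cytokines and 49.9, 50.1 and 55.2 CPM with vehicle. It was lower by a log2 fold change of -0.31 (edgeR adjusted p = 8.74e-05), with no overlap. The lipid kinase PIK3C3 itself had a log2 fold change of -0.06 and did not pass.

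Of the 5 genes that supply membrane or read PI3P, 2 were higher and 2 lower. The WIPI genes, whose proteins bind PI3P, differed in direction. WIPI1 had 41.3, 40.6 and 38.2 CPM with cytokines and 24.6, 30.1 and 29.5 CPM with vehicle (log2 fold change 0.48, SE 0.07, edgeR adjusted p = 8.16e-07). WIPI2, which recruits ATG16L1 to the membrane, had 63.0, 66.0 and 61.7 CPM with cytokines and 84.8, 91.3 and 85.6 CPM with vehicle (log2 fold change -0.46, SE 0.05, edgeR adjusted p = 8.79e-09). ATG2A, a lipid transfer protein, had 168, 163 and 173 CPM with cytokines and 125, 122 and 118 CPM with vehicle (log2 fold change 0.47, SE 0.05, edgeR adjusted p = 3.58e-10). Its paralog ATG2B had a log2 fold change of -0.11 and did not pass (edgeR adjusted p = 0.106). ATG9A, the membrane protein of the seed vesicles, had 57.4, 60.5 and 61.3 CPM with cytokines and 73.4, 74.8 and 65.9 CPM with vehicle (log2 fold change -0.24, edgeR adjusted p = 0.000512). Of its exon bases 38.8% are shared with AC068946.2 on the same strand, whose log2 fold change was -0.34. In WIPI1, WIPI2, ATG2A and ATG9A the groups did not overlap.

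The 7 conjugation genes were mostly not past the test, with 1 higher and 1 lower; with library size alone 4 were lower. ATG3, the enzyme that passes LC3 to lipid, had 62.4, 61.7 and 60.1 CPM with cytokines and 38.0, 39.1 and 39.3 CPM with vehicle. The groups stood well apart, with a log2 fold change of 0.66 (SE 0.06, edgeR adjusted p = 3.60e-11), or 1.58-fold. ATG16L2, a relative of ATG16L1, had 33.8, 34.7 and 36.7 CPM with cytokines and 53.1, 48.4 and 48.4 CPM with vehicle (log2 fold change -0.50, SE 0.06, edgeR adjusted p = 6.17e-08). It shares 7.89% of its exon bases with FCHSD2 on the opposite strand, which was higher by a log2 fold change of 1.06. ATG7, the activating enzyme of both conjugation routes, was at 14.6 to 16.3 CPM with cytokines and 16.7 to 17.95 CPM with vehicle (edgeR adjusted p = 0.0903). Its groups did not overlap, but it did not pass. ATG5, ATG12 and ATG16L1, which form the complex that places LC3, and ATG10, which joins ATG12 to ATG5, had log2 fold changes from -0.07 to 0.08 and did not pass.

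The ATG4 proteases trim LC3 and GABARAP proteins before conjugation and later free them from lipid. Of the 4 genes, 1 was higher and 1 lower, and with library size alone 0 were higher and 2 lower. ATG4A had 26.2, 25.5 and 24.98 CPM with cytokines and 19.4, 20.8 and 22.2 CPM with vehicle (log2 fold change 0.28, edgeR adjusted p = 0.00217). ATG4C had 6.46, 7.70 and 6.95 CPM with cytokines and 9.69, 10.5 and 10.2 CPM with vehicle (log2 fold change -0.54, SE 0.11, edgeR adjusted p = 0.000149). Neither gene's groups overlapped, and ATG4C was the gene with the lowest fold change of the 42. ATG4B, at 192 CPM with cytokines and 195 CPM with vehicle, and ATG4D did not pass.

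The LC3 and GABARAP proteins are the tags that are joined to the autophagosome membrane and that receptors bind. Of the 6 genes, 3 were higher and 1 lower with TMM scaling, and 1 was higher and 2 lower with library size alone. MAP1LC3B (ENSG00000140941), the LC3 form most used as an autophagosome marker, had 146, 141 and 143 CPM with cytokines and 88.8, 99.3 and 88.1 CPM with vehicle. The groups did not overlap, with a log2 fold change of 0.64 (SE 0.05, edgeR adjusted p = 4.12e-12), or 1.56-fold. MAP1LC3A moved the other way. It had 102, 107 and 114 CPM with cytokines and 132, 124 and 119 CPM with vehicle (log2 fold change -0.20, SE 0.05, edgeR adjusted p = 0.000997). MAP1LC3B2 is a near-identical copy of MAP1LC3B, and reads may be split between them. It had 0.799, 1.02 and 0.290 CPM with cytokines and 0.636, 0.368 and 0.702 CPM with vehicle, levels that rest on few counts, and it did not pass. Counted together, the 2 genes had a log2 fold change of 0.64 (edgeR adjusted p = 3.61e-12).

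The GABARAP genes changed less. GABARAP had 114, 113 and 118 CPM with cytokines and 110, 104 and 102 CPM with vehicle (log2 fold change 0.13, SE 0.05, edgeR adjusted p = 0.0156). GABARAPL1 had 18.6, 17.6 and 16.1 CPM with cytokines and 14.6, 14.2 and 14.97 CPM with vehicle (log2 fold change 0.25, SE 0.09, edgeR adjusted p = 0.0141). The groups did not overlap in these 2 genes, but both calls were lost with library size alone, where GABARAP reversed to -0.07. The call of GABARAPL1 was also lost in DESeq2 and without cytokine replicate 1, and that of GABARAP without vehicle replicate 3. GABARAP shares 30.5% of its exon bases with AC120057.2 on the same strand, whose log2 fold change was 0.16. GABARAPL2 had 97.7, 104 and 109 CPM with cytokines and 99.9, 113 and 108 CPM with vehicle, with overlapping groups, and did not pass (log2 fold change -0.06, edgeR adjusted p = 0.362).

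IRGM, which in human cells is tied to the autophagy of bacteria, was the 1 gene of the 43 below the filter. It had 0, 0 and 1 counts in cytokine replicates 1, 2 and 3 and 0, 0 and 0 counts in vehicle replicates 1, 2 and 3. A library with 0 counts allows up to 3 counts at its depth, for counting error alone, so a level below that was not detectable. A change of IRGM could not be measured.

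Core machinery and cargo receptors were then set side by side. Of the 33 core genes, 12 were higher, 8 lower and 13 not past the test, with a median log2 fold change of 0.07. That is 60.6% called, beside 57.1% of all genes tested and 65.3% of those of at least 10 CPM. With library size alone 5 core genes were higher and 16 lower, where 16.7% and 49.2% of all genes tested were. Of the 5 receptors, 4 were higher and 0 lower by edgeR, with a median of 0.47. Of the 4 mitophagy genes, 0 were higher and 3 lower, with a median of -0.29. Both counts of 0 were also 0 at an unadjusted p under 0.05 and in DESeq2. The mean log2 CPM of the receptors lay above that of the core genes by 2.78, 2.74 and 2.77 in the cytokine libraries, and by 2.13, 2.22 and 2.15 in the vehicle libraries. The gap was thus wider in each cytokine library than in any vehicle library, at 2.76 ± 0.02 against 2.17 ± 0.05 (SD, n = 3 each), a change of 0.60. Both sides come from the same library, so a scaling factor cancels in this gap apart from the prior count of 2. Without OPTN the change was 0.34, a setting chosen after its values were seen, and with medians in place of means it was 0.28. With BNIP3, BNIP3L and FUNDC1 counted among the receptors it was 0.27. The mean log2 CPM of the mitophagy genes lay above the core by 0.50 ± 0.03 in cytokine libraries and 0.83 ± 0.04 in vehicle libraries, a change of -0.33. No p is given for these gaps, because the genes were chosen with earlier results of these data known.

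**Figure D3:**
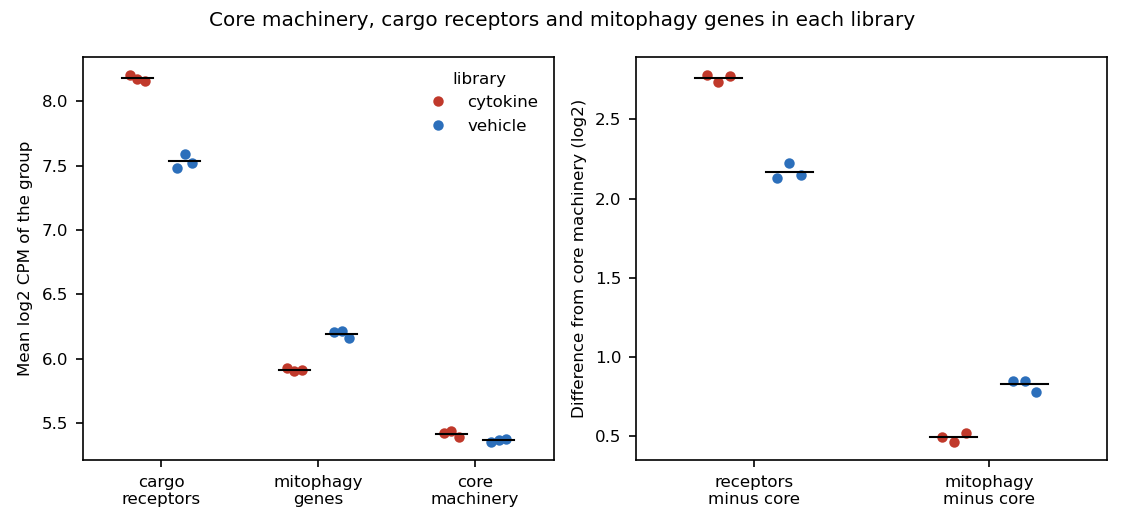
Mean log2 CPM of the 5 cargo receptors, the 4 mitophagy genes and the 33 core genes in each library (left), and the difference of the first groups from the core genes (right); points are libraries, with cytokine left of vehicle, and lines are means of n = 3. The receptor gap is 2.74 to 2.78 with cytokines and 2.13 to 2.22 with vehicle, and the mitophagy gap is 0.47 to 0.52 with cytokines and 0.78 to 0.85 with vehicle.

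**Figure D4:**
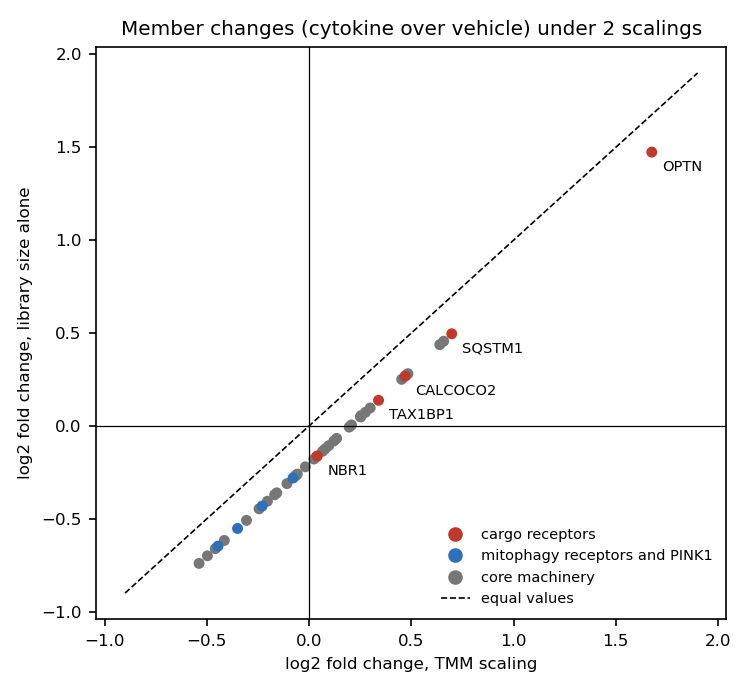
Log2 fold change of cytokine over vehicle for the 42 tested genes with TMM scaling (horizontal) and with library size alone (vertical); each point is a gene, coloured by group, and the dashed line marks equal values. All points lie below the line by about 0.20; OPTN is at 1.47 and SQSTM1 at 0.50 with library size alone, and NBR1 moves below 0.

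Levels of different genes were compared per length, as CPM per kilobase of the exon bases annotated in GENCODE 29. On this scale OPTN was the most abundant of the 43 genes in cytokine libraries, at 147 ± 4.16 CPM per kilobase, and the 3rd in vehicle libraries, at 46.0 ± 1.40 (SD, n = 3 each). MAP1LC3A was the 2nd in cytokine libraries, at 61.2 ± 3.39 CPM per kilobase, and the 1st in vehicle libraries, at 70.9 ± 3.52. OPTN and GABARAP did not differ beyond their spread in vehicle libraries, where GABARAP was at 46.5 ± 1.77 CPM per kilobase. SQSTM1 was the 4th at 46.4 ± 0.623 CPM per kilobase with cytokines and the 6th at 28.5 ± 1.45 with vehicle. MAP1LC3B was the 8th at 27.0 ± 0.545 CPM per kilobase with cytokines and the 14th at 17.3 ± 1.18 with vehicle. These ranks depend on the length used. With the longest transcript OPTN stayed the 1st with cytokines and the 3rd with vehicle. SQSTM1 was then the 2nd in both groups, at 119 CPM per kilobase with cytokines and 73.1 with vehicle. MAP1LC3A was then the 4th with cytokines, at 68.5 CPM per kilobase, and the 1st with vehicle, at 79.3.

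The make-up of each family differed accordingly. OPTN made up 55.9 ± 0.509% of the receptors' summed CPM per kilobase in cytokine libraries and 35.1 ± 0.454% in vehicle libraries. NBR1 made up 7.62 ± 0.079% with cytokines and 14.9 ± 0.181% with vehicle. The share of SQSTM1 was 17.6 ± 0.418% with cytokines and 21.8 ± 0.347% with vehicle, so its share was smaller although its level was higher. Within the LC3 and GABARAP family MAP1LC3B made up 15.2 ± 0.655% with cytokines and 9.96 ± 0.604% with vehicle. MAP1LC3A made up 34.4 ± 0.886% with cytokines and 40.7 ± 1.31% with vehicle. Shares depend on the length used: with the longest transcript the share of OPTN was 44.5% with cytokines and 25.9% with vehicle, and that of MAP1LC3B 19.6% and 13.2% in cytokine and vehicle libraries. SQSTM1 then made up 24.7% with cytokines and 28.2% with vehicle, so that in vehicle libraries its share lay above that of OPTN.

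**Figure D5:**
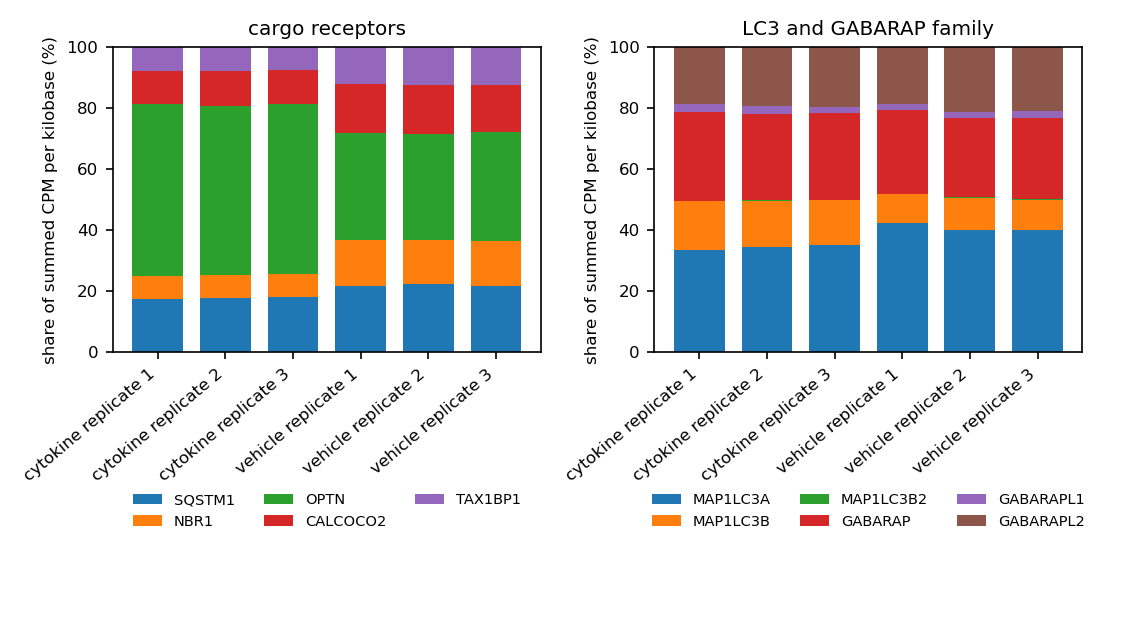
Share of each gene in the summed CPM per kilobase of the 5 cargo receptors (left) and of the 6 LC3 and GABARAP genes (right), in percent, by union exon length, with 1 bar per library and the cytokine libraries left of the vehicle libraries. The OPTN segment is 55.6% to 56.5% with cytokines and 34.7% to 35.6% with vehicle, and the MAP1LC3B segment is 14.7% to 15.9% with cytokines and 9.46% to 10.6% with vehicle.

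Other genes of the pathway, 101 in 8 lists, were counted beside these 43. Of 98 tested, 34 were higher and 23 lower with cytokines, with a median log2 fold change of 0.06. That is 58.2% called, where 57.1% of all genes tested were called, 28.3% higher and 28.8% lower. With library size alone 20 were higher and 50 lower, where 16.7% and 49.2% of all genes tested were. These shares over all genes also stand beside the counts of each list below. Among genes that bear on the receptors, 4 of 15 were higher and 4 lower, and 3 and 9 with library size alone. Their median log2 fold change was 0.06, against 0.47 for the 5 cargo receptors. TANK, a scaffold of the kinase TBK1, averaged 78.3 ± 2.56 CPM with cytokines and 38.1 ± 2.37 CPM with vehicle (log2 fold change 1.02, edgeR adjusted p = 2.88e-15). TBKBP1, another TBK1 adaptor, averaged 34.9 ± 0.527 CPM with cytokines and 23.2 ± 0.796 CPM with vehicle (log2 fold change 0.60, edgeR adjusted p = 9.89e-09). The third adaptor, AZI2, was lower at -0.22, and RTN3, a receptor for the endoplasmic reticulum, was lower at -0.19. TBK1, which phosphorylates OPTN, was not named by the rule but picked with its values in view. It averaged 37.2 ± 2.56 CPM with cytokines and 27.1 ± 1.37 CPM with vehicle (log2 fold change 0.45, edgeR adjusted p = 3.00e-06).

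Of 15 other mitophagy genes, 6 were higher and 6 lower, and 3 and 7 with library size alone. Their median log2 fold change was 0.08, against -0.29 for the 4 mitophagy genes above. USP15, a deubiquitinase known to oppose mitophagy, averaged 96.7 ± 2.29 CPM with cytokines and 50.1 ± 2.05 CPM with vehicle (log2 fold change 0.96, edgeR adjusted p = 9.78e-16). USP30, the deubiquitinase of the mitochondrial outer membrane, went the other way, with 30.6 ± 1.64 CPM with cytokines and 42.96 ± 3.04 CPM with vehicle (log2 fold change -0.49, edgeR adjusted p = 2.54e-07). The ubiquitin ligase MARCHF5 was higher at 0.39, and NIPSNAP1, a mitochondrial protein that draws in receptors, was lower at -0.53.

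Upstream of the ULK1 complex, 2 of 14 mTORC1 and AMPK subunit genes were higher and 5 lower, and 0 and 11 with library size alone. PRKAB2, a beta subunit of AMPK, averaged 33.0 ± 0.765 CPM with cytokines and 60.1 ± 4.67 CPM with vehicle (log2 fold change -0.87, edgeR adjusted p = 8.07e-13). MLST8, a subunit shared by the mTOR complexes, was lower at -0.35, and RPTOR and AKT1S1 of mTORC1 were higher by 0.13 and 0.14, with overlapping groups for AKT1S1. The call of RPTOR was lost under 7 of 14 alternatives and that of AKT1S1 under 8, both of them in DESeq2, with library size alone, and without cytokine replicate 1 or vehicle replicate 3. AKT1S1 was also lost without cytokine replicate 3 or vehicle replicate 2. Of 19 amino acid sensing genes, 6 were higher and 3 lower, and 4 and 9 with library size alone. FLCN, folliculin, averaged 136 ± 2.31 CPM with cytokines and 73.2 ± 4.498 CPM with vehicle, and RRAGC, the GTPase it acts on, 28.6 ± 0.508 CPM with cytokines and 15.5 ± 0.396 CPM with vehicle, each with a log2 fold change of 0.88. SESN1 and DEPDC5 were lower by log2 fold changes of -0.26 and -0.24. The call of DEPDC5 was lost under 7 of 14 alternatives, among them DESeq2 and leaving out cytokine replicate 3, vehicle replicate 1 or vehicle replicate 3. Of 7 tested transcription factors known to drive or repress autophagy genes, 3 were higher and 2 lower, and 2 and 3 with library size alone. MITF, at 3.47 ± 0.125 CPM with cytokines and 1.96 ± 0.116 CPM with vehicle, and TFE3 were higher at 0.82 and 0.42. FOXO4, at 6.88 ± 0.722 CPM with cytokines and 14.6 ± 0.183 CPM with vehicle, and the repressor ZKSCAN3 were lower at -1.07 and -0.26. The call of ZKSCAN3 was lost under 12 of 14 alternatives, among them every library left out in turn, and that of FOXO4 under 0 of 14.

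Of 12 further genes of autophagosome formation, 5 were higher and 2 lower, and 3 and 4 with library size alone. WDR45B, a relative of the WIPI genes, averaged 214 ± 5.72 CPM with cytokines and 105 ± 3.00 CPM with vehicle (log2 fold change 1.02, edgeR adjusted p = 5.90e-18). VMP1, a lipid scramblase, was higher at 0.93, while ULK3 and TBC1D14 were lower at -0.40 and -0.24. Of 15 tested genes for fusion with the lysosome, 7 were higher and 1 lower, and 4 and 7 with library size alone. The SNARE genes STX17 and VAMP8, both of which work in that fusion, were higher at 0.63 and 0.48, and TECPR1 was lower at -0.13 with overlapping groups. That call was lost under 9 of 14 alternatives, among them DESeq2 and leaving out cytokine replicate 1, cytokine replicate 2, vehicle replicate 1 or vehicle replicate 2. IRGQ, a relative of IRGM, averaged 55.2 ± 2.96 CPM with cytokines and 36.8 ± 4.92 CPM with vehicle (log2 fold change 0.57, edgeR adjusted p = 4.69e-08), and IRGC was below the filter.

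Markers of other cell types were present at unequal levels. Of 6 markers of other islet cells, SST was at 568 ± 20.6 CPM with cytokines and 555 ± 34.5 CPM with vehicle and did not pass. GCG was at 25.7 ± 1.05 CPM with cytokines and 44.5 ± 1.46 CPM with vehicle and was lower (log2 fold change -0.79, edgeR adjusted p = 1.19e-11). The summed level of these 6 was 596 to 632 CPM with cytokines and 585 to 655 CPM with vehicle. Of 6 exocrine and duct markers, KRT19 was lower, at 135 ± 4.76 CPM with cytokines and 161 ± 9.68 CPM with vehicle (log2 fold change -0.25, edgeR adjusted p = 7.02e-05). CPA1 was at 5.22 CPM with cytokines and 5.60 CPM with vehicle and did not pass, and PRSS1 and CELA3A were at 0 in all libraries. The sum of these 6 was 135 to 145 CPM with cytokines and 156 to 173 CPM with vehicle. Of 6 leukocyte markers, CD68 was higher with cytokines, at 21.4 ± 0.781 CPM with cytokines and 5.14 ± 0.374 CPM with vehicle, while PTPRC was at 0.117 CPM with cytokines and 0.131 CPM with vehicle. The summed level of the 6 was 23.3 to 24.8 CPM with cytokines and 8.18 to 8.48 CPM with vehicle. Of 6 fibroblast and endothelial markers, PDGFRB was higher, at 12.1 ± 0.827 CPM with cytokines and 2.93 ± 0.229 CPM with vehicle, while COL1A1 was at 0.615 CPM with cytokines and 0.189 CPM with vehicle. Their summed level was 12.1 to 13.8 CPM with cytokines and 3.22 to 4.504 CPM with vehicle. The part of these cell types in the changes of the autophagy genes was not tested.

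In the authors' deposited table, the same 16 genes of the 43 were higher and the same 11 lower, and 0 were called in opposite directions.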

How the data were processed

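A Nucleospin miRNA kit gave the RNA of 6 EndoC-BH5 samples and a directional kit the libraries, per the labels' protocols. The submitters' processing notes name STAR 2.7.5a, HTSeq 0.12.4 and cutadapt 2.10, and for quality MultiQC 1.9, Picard 2.23.2 and FastQC 0.11.9, without parameters, and the build GRCh38. No source used here states the annotation release or the counting strand. The authors deposited an estimated count per gene and library, not normalised and not always whole (67.3% to 73.5% of values above 0 within 0.005 of a whole number). The deposited table also has group means of the count, an F score, a p-value, an FDR, a log2 change and a mean log2 CPM, per the file headers. Only the log2 change and FDR were used from these. Columns named NT were taken as vehicle, since the other 3 carry the cytokine name and the numbers match the sample titles.

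Counts were rounded, filtered with filterByExpr (17847 of 60611 genes kept), scaled with TMM (factors 0.931 to 0.935 with cytokines and 1.06 to 1.08 with vehicle) and tested with edgeR 4.0.16 (R 4.3.3, robust quasi-likelihood fit on group, adjusted p under 0.05 over all genes). The SE is the absolute log2 fold change divided by the square root of F. The common biological coefficient of variation was 3.47%. Replicates of a group differed by a chi-square of 1.34 to 2.32 per gene, so none was merged. The scripts were tested on simulated data. Exon lengths and overlaps came from GENCODE 29 on GRCh38 and start windows from RefSeq on GRCh38.p14. Precision for low genes is limited by the count, most of all in vehicle replicate 1.

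The genes and lists were chosen with earlier results of these data known. Libraries are named one by one for the receptors, the mitophagy genes, the LC3 and GABARAP family and IRGM, and in other groups for up to 2 rises and 2 falls that passed. Other lists name up to 2 higher and 2 lower genes of at least 1 CPM by size of change. One check gene of the rule is not reported here. Overlapping neighbours were picked after the data were seen. Alternatives were DESeq2 size factors, library size alone, DESeq2 1.42.0, no filter, a floor of 1 CPM in 3 libraries, an adjusted p of 0.01, glmTreat, a block on the replicate number, other lengths and summaries, and each library left out. Counting receptors without OPTN was added after the data were seen.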

Additional observations from a re-analysis of the deposited data

How the results depend on the processing

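With library size alone, 9 of the 42 genes were higher and 21 lower (core machinery 5 and 16, class III PI3-kinase complex 0 and 2, conjugation lower 4, ATG4 proteases 0 and 2, LC3 and GABARAP family 1 and 2, cargo receptors lower 1, other pathway genes 20 and 50). Of all genes tested, 16.7% were higher and 49.2% lower with that scaling. That scaling reversed ATG13 (-0.17), RB1CC1 (-0.11), ATG14 (-0.0062), ATG5 (-0.14), ATG12 (-0.12), ATG16L1 (-0.18), ATG4D (-0.081), GABARAP (-0.067) and NBR1 (-0.16), since it shifts all genes by -0.20. It also ended the calls of BECN1, UVRAG, AMBRA1, ATG4A and GABARAPL1. In glmTreat against a fold of 1.5, 2 genes were higher (both cargo receptors) and 0 lower, 0 in the core machinery, in each of its role groups and in the mitophagy genes, and 6 higher and 2 lower among other pathway genes. At an adjusted p of 0.01, 1 gene of the LC3 and GABARAP family was higher and 14 other pathway genes lower, as they were (14) in DESeq2 and with no filter. Of all genes tested in each setting, 24.4% were higher and 23.1% lower at 0.01. The shares were 24.9% and 21.5% in DESeq2, and 12.6% and 11.9% with no filter. Leaving out 1 library at a time gave 14 to 17 higher and 11 to 12 lower genes, 10 to 13 and 8 to 9 in the core machinery, 1 to 2 higher in the ULK1 complex (2 without cytokine replicate 3), 3 to 4 higher in the PI3-kinase complex, 2 to 3 lower in membrane supply, 2 to 3 higher in the LC3 and GABARAP family, and 28 to 35 and 15 to 18 among other pathway genes; 15 lower ones came without cytokine replicate 1, vehicle replicate 1 or vehicle replicate 2. Of all genes tested, 25.3% to 27.8% were higher and 24.1% to 26.4% lower with 1 library left out. Of the genes that reversed there, ATG10, ATG16L1 and ATG4B had main changes near 0. MAP1LC3B2 had a main change of 0.26 (SE 0.43) that rests on few counts. Without cytokine replicate 2 the values were ATG10 (0.00057), ATG16L1 (-0.0052), ATG4B (0.012) and MAP1LC3B2 (-0.067). Without cytokine replicate 1, ATG4B was at 0.00091. Over all such fits ATG10 ranged from -0.13 to 0.00057, ATG16L1 from -0.0052 to 0.078, ATG4B from -0.043 to 0.012 and MAP1LC3B2 from -0.067 to 0.63. The receptor gap over the core genes changed by 0.58 to 0.62 with 1 library left out, by 0.28 with medians, by 0.27 with BNIP3, BNIP3L and FUNDC1 added, and by 0.34 without OPTN. With the longest transcript as length, OPTN made up 44.5% with cytokines and 25.9% with vehicle of the receptors, and MAP1LC3B 19.6% and 13.2% of its family in cytokine and vehicle libraries; the cause of other moves was not tested. Same-numbered cytokine and vehicle libraries did not deviate together (r = 0.014, -0.045 and -0.048 across genes, which are not independent replicates), so the numbers were not taken as pairs. The fit with the replicate block gave 16 higher and 11 lower genes. Among single genes, 525 alternative values kept direction and call, 40 kept direction but lost the call, 9 kept direction and gained it, and 14 reversed. Among those 14, ATG14 and GABARAP also lost their call, and ATG13, ATG16L1 and NBR1 gained one, all with library size alone. MAP1LC3B2 was not tested with at least 1 CPM in 3 libraries, and no change is given for IRGM under any setting. Depth limits MAP1LC3B2 and IRGM most.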
